A study of Mus musculus with 6 samples.

Results

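The genes described here are 10 genes of the circadian clock, *Arntl*, *Clock*, *Per1*, *Per2*, *Per3*, *Cry1*, *Cry2*, *Nr1d1*, *Nr1d2* and *Dbp*, which were chosen by symbol among the 17554 genes of the deposited expression table. All 10 were in the table, and all 10 passed the filter on low counts together with 12667 genes in all. They were measured by bulk RNA-seq in the corneal epithelium of mice 2 months of age, in 3 control samples and 3 mutant samples of genotype *Krt14-Cre; Rela f/f*. *Rela* encodes the p65 subunit of NF-kappa B, and the Cre recombinase was driven by the promoter of keratin 14, a keratin of basal epithelial cells. The strain is given as C57BL/6, the control samples are labelled WT and the mutant samples Rela-/-. Whether the controls carried the Cre transgene or a floxed allele, the sex of the mice, the number of mice behind a sample and the time of day of collection are not given in the sources used here. The comparison of the genotypes addresses whether clock genes and their targets differed after *Rela* deletion, and the values of single samples bear on whether all samples were taken at a like phase of the clock.

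The clock of mammalian cells is a loop of transcription and repression that runs about once a day. CLOCK and BMAL1, the product of *Arntl*, pair on E-box elements and drive the *Per* and *Cry* genes, *Nr1d1*, *Nr1d2* and *Dbp*, and the PER and CRY proteins then repress CLOCK and BMAL1. *Nr1d1* and *Nr1d2* encode the nuclear receptors REV-ERB alpha and REV-ERB beta, which repress *Arntl* through elements that the activating ROR receptors also bind. DBP is a transcription factor that acts on D-box elements, among them those of *Per* genes. In most tissues *Arntl* transcripts therefore peak when those of *Dbp* and *Nr1d1* are low. In the corneal epithelium of rodents, cell division follows a daily rhythm.

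The 5 promoter windows below are shown because they hold the letters of an element of this loop or of the NF-kappa B site. RefSeq windows of 300 bases on GRCm38.p6, from 250 bases before a transcript start to 50 bases after it, were searched on both strands, and 9 of the 10 genes matched 13 windows. *Per2* had no window and was not searched. The elements searched were the E-box (CACGTG), the D-box (TTANGTAA), the REV-ERB/ROR element (TAGGTCA), the cAMP response element (TGACGTCA) and a kappa B site (GGANTTTCC). The windows lie at chr11:69098699-69098998 on the plus strand for *Per1*, chr10:85185005-85185304 on the minus strand for *Cry1*, chr4:151044616-151044915 on the minus strand for *Per3*, chr7:113207261-113207560 on the plus strand for *Arntl* and chr14:18239057-18239356 on the minus strand for *Nr1d2*. Each is written 5′ to 3′ in the direction of the gene, and capitals mark the letters of a searched element.
Per1: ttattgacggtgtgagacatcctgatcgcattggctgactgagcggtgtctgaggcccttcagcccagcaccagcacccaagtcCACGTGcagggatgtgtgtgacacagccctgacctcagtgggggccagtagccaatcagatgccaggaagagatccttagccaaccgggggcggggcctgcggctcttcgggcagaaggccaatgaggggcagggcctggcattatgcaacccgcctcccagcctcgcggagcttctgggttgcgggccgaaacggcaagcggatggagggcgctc
Cry1: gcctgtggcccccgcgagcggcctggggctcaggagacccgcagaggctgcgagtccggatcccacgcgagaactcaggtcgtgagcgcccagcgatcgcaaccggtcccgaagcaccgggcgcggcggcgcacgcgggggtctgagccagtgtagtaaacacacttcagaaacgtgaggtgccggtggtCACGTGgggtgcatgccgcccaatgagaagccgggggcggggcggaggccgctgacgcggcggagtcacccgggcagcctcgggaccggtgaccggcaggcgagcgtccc
Per3: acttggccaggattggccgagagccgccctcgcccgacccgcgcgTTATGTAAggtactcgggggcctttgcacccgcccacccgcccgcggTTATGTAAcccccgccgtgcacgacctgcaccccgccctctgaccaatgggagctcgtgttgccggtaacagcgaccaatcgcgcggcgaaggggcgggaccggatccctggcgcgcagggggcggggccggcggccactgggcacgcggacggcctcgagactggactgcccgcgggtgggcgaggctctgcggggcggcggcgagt
Arntl: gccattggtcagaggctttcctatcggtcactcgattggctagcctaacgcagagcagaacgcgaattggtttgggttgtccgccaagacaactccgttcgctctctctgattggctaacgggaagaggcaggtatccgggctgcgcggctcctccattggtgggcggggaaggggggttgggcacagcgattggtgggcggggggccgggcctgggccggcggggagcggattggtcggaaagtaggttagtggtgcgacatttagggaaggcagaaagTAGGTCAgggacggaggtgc
Nr1d2: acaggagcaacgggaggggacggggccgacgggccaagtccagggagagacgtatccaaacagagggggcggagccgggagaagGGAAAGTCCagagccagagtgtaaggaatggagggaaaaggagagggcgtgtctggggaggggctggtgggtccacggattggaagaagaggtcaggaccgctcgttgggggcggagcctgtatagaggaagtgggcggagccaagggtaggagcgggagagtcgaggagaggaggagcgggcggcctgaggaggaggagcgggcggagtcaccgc

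The first of 2 *Per1* starts and the start of *Cry1* held 1 E-box each, and the E-box letters were in 7.15% of all 32851 windows. *Per3* held 2 D-boxes, and 2.32% of all windows held at least 1. The second of 2 *Arntl* starts held 1 REV-ERB/ROR element, found in 2.61% of all windows. *Nr1d2* held 1 kappa B site, found in 1.25% of all windows. The cAMP response element was in 1.79% of all windows and in 0 of the 13 windows of these genes. These are matches of letters in a window around the start and were not tested for binding.

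Total expected counts, the read numbers that RSEM assigned to genes, were 19492942 to 19733834 per sample, so depth was alike in all samples. At this depth 3 counts corresponded to 0.152 to 0.154 CPM (counts scaled to the total of the sample). The CPM values of genes given below were also scaled by the between-sample factors of edgeR (TMM). *Rela* was 36.5, 34.7 and 33.4 FPKM (fragments scaled to the length of the transcript and to sequencing depth) in control samples 1, 2 and 3, and 4.93, 5.53 and 5.72 FPKM in mutant samples 1, 2 and 3. Its log2 fold change was −2.75 (SE 0.08, adjusted p = 5.5e-07, quasi-likelihood test of edgeR). The genotypes separated on the first principal component (65.7% of the variance), and mutant sample 1 lay apart from the other mutants on the second (11.6%), at 24.1 against −9.53 and −20.6. All 8 corneal epithelial markers had a mean of at least 1 FPKM, with sums of 46933 to 50927 FPKM in controls and 42930 to 46532 in mutants. Of 7 leukocyte markers 2 were tested, and their list summed to 4.75 to 6.08 FPKM in controls and 7.70 to 9.60 in mutants. The 6 conjunctival and goblet cell markers, 5 of them tested, summed to 1365 to 1598 FPKM in controls and 1077 to 1192 in mutants. Keratocyte markers summed to at most 7.24 FPKM, corneal endothelial markers to at most 12.96, melanocyte and retinal markers to at most 6.5, blood markers to at most 4.29 (*Hbb-bt* was listed at 0 in all samples), vascular markers to at most 0.24 and muscle markers to at most 0.07 in any sample. The part of these cell types in the clock gene values was not tested.

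Of the 10 clock genes, 2 were lower in the mutant epithelium, *Per3* by 25.5% and *Nr1d2* by 24.1%, and none was higher, at an adjusted p under 0.05 (quasi-likelihood test of edgeR, adjusted by Benjamini-Hochberg across the 12667 genes). Among all genes tested 13.2% passed, 5.42% as lower and 7.82% as higher. The largest estimates were those of *Per1* (−1.11 on the log2 scale), *Per2* (−0.73) and *Arntl* (0.61), which did not pass and whose mutant samples spanned 3.07-fold, 2.45-fold and 2.19-fold ranges in FPKM. By the stricter thresholds of the study, an adjusted p of at most 0.001 with a fold change of at least 2, 0 of the 10 genes passed with edgeR, DESeq2 or limma, against 1.37% of all genes with edgeR. At an unadjusted p under 0.05, 5 of the 10 passed with edgeR, against 28.1% of all genes. The CPM values of the genotypes did not overlap for 2 of the 10 genes, *Per3* and *Nr1d2*, against 33.7% of all genes. The log2 fold change was negative for 8 genes and positive for 2, with a median of −0.20 over the 10 and of −0.0028 over all genes tested. The samples of a genotype were separate biological samples by the methods of the study. In whole tissue, fewer cells of a type and less RNA per cell cannot be told apart. An exact permutation test of single values could not go below p = 0.1 in 3 against 3 samples.

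**Figure D1:**
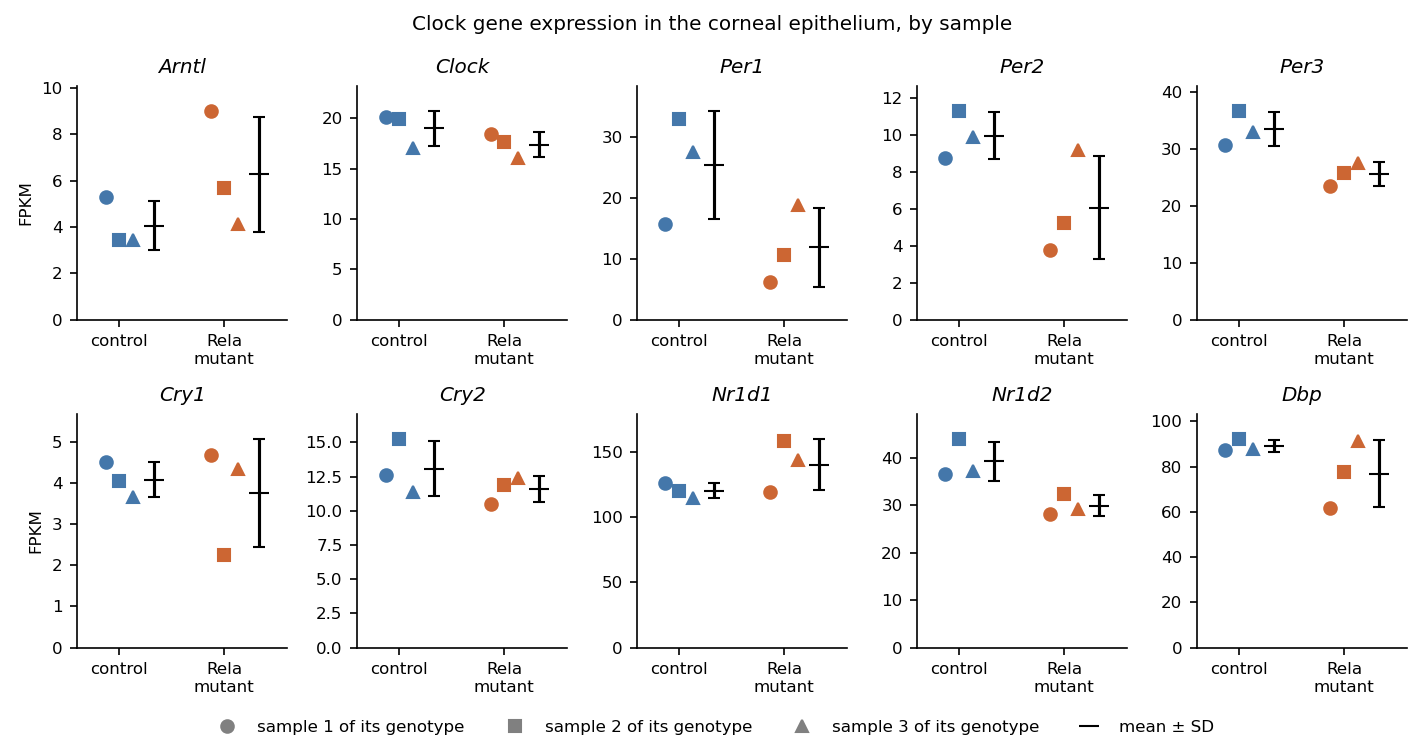
Expression of the 10 clock genes in FPKM (y axis, from 0, its own scale in each panel) in the 3 control and 3 *Rela* mutant samples, with circles, squares and triangles for samples 1, 2 and 3 of each genotype and bars for mean ± SD. The genotypes are apart for *Per3* and *Nr1d2*, while *Per1*, *Per2* and *Dbp* run from a low mutant sample 1 to a high mutant sample 3 and *Arntl* runs the other way.

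By level, *Nr1d1* was the most abundant of the 10 in the control epithelium, at 120 ± 5.90 FPKM (mean ± SD, n = 3), and *Dbp* followed at 89.2 ± 2.73. *Nr1d2* (39.3 ± 4.11), *Per3* (33.4 ± 3.0), *Per1* (25.5 ± 8.87) and *Clock* (19.0 ± 1.72) came next in FPKM, and neighbours within these 4 overlapped. *Cry2* (13.1 ± 1.98) and *Per2* (9.96 ± 1.28) were lower. *Cry1* (4.08 ± 0.43) and *Arntl* (4.06 ± 1.06) were the lowest in FPKM and overlapped. In the mutant epithelium the first 4 kept this order. *Clock* (17.4 ± 1.22) stood above *Per1* (11.9 ± 6.47) there, and *Arntl* (6.28 ± 2.5) above *Per2* (6.06 ± 2.80) and *Cry1* (3.76 ± 1.32). FPKM is scaled by transcript length, so these levels can be set beside each other.

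*Arntl* (gene 11865, chromosome 7, 113178471 to 113314126, GRCm38.p6) was 5.28, 3.46 and 3.44 FPKM in control samples 1, 2 and 3 and 9.01, 5.70 and 4.12 in mutant samples 1, 2 and 3. Mutant sample 1 was the highest of all 6, mutant sample 3 lay within the control range, and control sample 1 was the highest control. The log2 fold change was 0.61 (95% CI 0.01 to 1.22, adjusted p = 0.17). In GENCODE, 0.44% of the exon bases of *Arntl* overlap *Gm45355* on the other strand. *Clock* (gene 12753, chromosome 5, 76209868 to 76305603), the partner of BMAL1, was 20.1, 19.9 and 17.0 FPKM in controls and 18.4, 17.7 and 16.1 in mutants. The groups overlapped, and the log2 fold change of −0.13 had an interval of −0.33 to 0.07 (adjusted p = 0.38). *Npas2*, which encodes a protein that can stand in for CLOCK, was 3.58, 3.09 and 3.19 FPKM in controls and 4.35, 4.63 and 2.94 in mutants, with mutant sample 3 below all controls (log2 fold change 0.27, adjusted p = 0.33, and 0.032 without mutant sample 3). The promoter window of *Arntl2*, the paralogue of *Arntl*, held the letters of 1 kappa B site, as that of *Nr1d2* did. *Arntl2* rose. Its values were 8.13, 5.53 and 5.39 FPKM in controls and 12.01, 8.64 and 10.98 in mutants, without overlap (log2 fold change 0.73, SE 0.16, adjusted p = 0.016). The adjusted p of *Arntl2* was 0.085 without control sample 2 and 0.074 without control sample 3.

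The *Per* genes encode the PERIOD repressors. *Per3* (gene 18628, chromosome 4, 150997018 to 151044707), whose promoter window with 2 D-boxes is printed above, was 30.7, 36.6 and 33.02 FPKM in controls and 23.4, 25.8 and 27.5 in mutants. All 3 mutant samples lay below all 3 controls, and the log2 fold change was −0.42 (SE 0.09, 95% CI −0.62 to −0.23, adjusted p = 0.012). *Per1* (gene 18626, chromosome 11, 69095108 to 69109965) was 15.7, 33.1 and 27.6 FPKM in controls and 6.15, 10.7 and 18.9 in mutants. Mutant samples 1 and 2 were below every control, and mutant sample 3 was above control sample 1. Its log2 fold change was −1.11 (SE 0.36, 95% CI −1.92 to −0.29, adjusted p = 0.076). *Per2* (gene 18627, chromosome 1, 91415977 to 91459351) was 8.72, 11.3 and 9.87 FPKM in controls and 3.75, 5.25 and 9.17 in mutants. Mutant sample 3 again lay within the control range (log2 fold change −0.73, SE 0.26, 95% CI −1.30 to −0.15, adjusted p = 0.095). Without mutant sample 3 *Per1* and *Per2* passed, as did *Arntl*, and *Nr1d2* did not, for 4 of the 10 genes. Without control sample 1 *Per1* passed at an adjusted p of 0.047. Without control sample 2, the highest control for *Per3*, the adjusted p of *Per3* was 0.061 and 0 of the 10 genes passed.

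The *Cry* genes encode the CRYPTOCHROME partners of the PER proteins. *Cry1* (gene 12952, chromosome 10, 85131700 to 85185054) was 4.52, 4.05 and 3.67 FPKM in controls and 4.69, 2.25 and 4.34 in mutants. Mutant sample 2 was the lowest of all 6 and mutant sample 1 the highest (log2 fold change −0.14, 95% CI −0.62 to 0.34, adjusted p = 0.71). The sign turned without mutant sample 2, to 0.092. *Cry2* (gene 12953, chromosome 2, 92403646 to 92434085) was 12.6, 15.3 and 11.4 FPKM in controls and 10.5, 11.9 and 12.4 in mutants, with overlap (log2 fold change −0.18, 95% CI −0.42 to 0.06, adjusted p = 0.32). In GENCODE, 4.67% of its exon bases overlap *D930015M05Rik* on the other strand.

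Other repressors of CLOCK and BMAL1 moved in both directions. *Bhlhe40*, which encodes the E-box repressor DEC1, rose from 95.3, 107 and 96.8 FPKM in controls to 142, 127 and 141 in mutants (log2 fold change 0.45, SE 0.08, adjusted p = 0.0057). Its paralogue *Bhlhe41* was 2.00, 2.03 and 2.16 FPKM in controls and 1.08, 1.33 and 2.04 in mutants, with mutant sample 3 within the control range (log2 fold change −0.48, adjusted p = 0.15, and 0.0093 without mutant sample 3). *Cipc*, whose product binds CLOCK, fell from 20.9, 23.1 and 22.4 FPKM to 16.9, 18.4 and 18.9 (log2 fold change −0.30, adjusted p = 0.033). Its adjusted p was 0.11 without control sample 2, 0.12 without control sample 3, and 0.052, 0.075 and 0.053 without mutant samples 1, 2 and 3. *Ciart*, which encodes the repressor CHRONO, was 7.10, 7.88 and 9.30 FPKM in controls and 5.56, 8.52 and 12.9 in mutants. Mutant sample 1 was the lowest and mutant sample 3 the highest of all 6 for *Ciart*, and the log2 fold change was 0.05 (adjusted p = 0.93), of a sign that turned with the sample left out.

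*Nr1d1* and *Nr1d2*, the REV-ERB genes, had estimates of opposite sign. *Nr1d2* (gene 353187, chromosome 14, 18204056 to 18239106), whose window with a kappa B site is printed above, was 36.6, 44.1 and 37.4 FPKM in controls and 28.2, 32.4 and 29.2 in mutants. The 3 mutant samples lay below the 3 controls and close to each other (log2 fold change −0.40, SE 0.09, 95% CI −0.61 to −0.19, adjusted p = 0.022). The adjusted p of *Nr1d2* was 0.088 without control sample 2, 0.06 without control sample 3 and 0.059 without mutant sample 3. *Nr1d1* (gene 217166, chromosome 11, 98767932 to 98775377) was 126, 120 and 115 FPKM in controls and 119, 158 and 144 in mutants. Mutant samples 2 and 3 were above all controls, and mutant sample 1 was below control samples 1 and 2 (log2 fold change 0.22, SE 0.10, 95% CI −0.01 to 0.45, adjusted p = 0.19). Without mutant sample 1, the mutant that stood apart on the second principal component, *Nr1d1* passed as higher and *Per3* and *Nr1d2* as lower, so that 3 of the 10 genes passed. Of the exon bases of *Nr1d1*, 8.55% overlap *Thra* on the other strand, and reads from these bases cannot be told apart without strand. For *Thra*, which encodes a thyroid hormone receptor, the log2 fold change was −0.09 (adjusted p = 0.6). For *Rora*, which encodes an activating ROR receptor, it was 0.16 (95% CI −0.05 to 0.37, adjusted p = 0.3).

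*Dbp* (gene 13170, chromosome 7, 45705100 to 45710203) is the output gene of the 10. It was 87.2, 92.3 and 88.0 FPKM in controls and 61.8, 77.8 and 91.3 in mutants. The controls lay close together while the mutants spanned a 1.48-fold range, with mutant sample 3 among the controls (log2 fold change −0.22, 95% CI −0.49 to 0.05, adjusted p = 0.27). Its exons share 18.0% of their bases with *Sphk2*, a sphingosine kinase gene on the other strand, whose log2 fold change was −0.03 (adjusted p = 0.81). The other activators of the same PAR bZIP family fell. *Tef* was 75.0, 89.1 and 79.6 FPKM in controls and 40.5, 50.01 and 61.7 in mutants (log2 fold change −0.68, SE 0.13, adjusted p = 0.0094). *Hlf* was 114, 117 and 110 FPKM in controls and 60.5, 79.3 and 94.8 in mutants (log2 fold change −0.54, SE 0.14, adjusted p = 0.028). For both genes mutant sample 3 was the mutant nearest to the controls and mutant sample 1 the farthest. The adjusted p of *Tef* was 0.054 without control sample 2. That of *Hlf* was 0.075, 0.11 and 0.079 without control samples 1, 2 and 3, and 0.071 without mutant sample 2. *Nfil3*, which encodes the D-box repressor, had 4, 4 and 3 counts in controls and 33, 9 and 10 in mutants and was not tested.

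**Figure D2:**
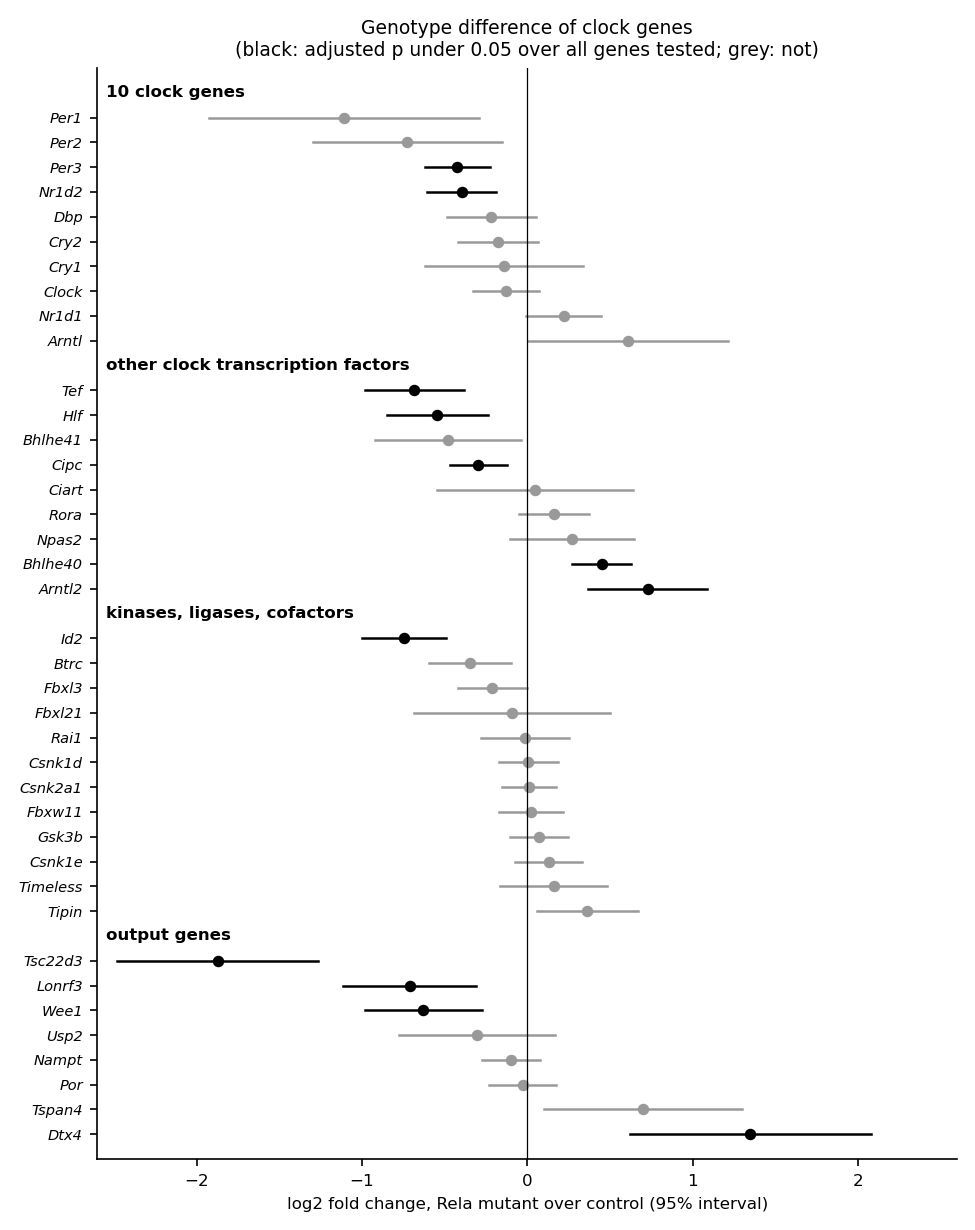
Log2 fold change, mutant over control, of the 10 clock genes and the other genes of the pathway lists from edgeR (x axis, 0 for no difference), with horizontal bars for the 95% confidence interval, black where the adjusted p was under 0.05 and grey elsewhere. The intervals of *Per3* (−0.62 to −0.23) and *Nr1d2* (−0.61 to −0.19) are narrow and lie below 0, while those of *Per1* (−1.92 to −0.29) and *Arntl* (0.01 to 1.22) are wide.

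Across the rest of the pathway, 5 of the 9 other clock transcription factor genes tested (of 11 listed) passed at an adjusted p under 0.05. This was 55.6%, against 13.2% of all genes tested. Of the 5, 3 were lower (*Tef*, *Hlf*, *Cipc*) and 2 higher (*Arntl2*, *Bhlhe40*), and the median log2 fold change over the list was 0.05. Of 12 genes for clock kinases, ubiquitin ligases and cofactors, 1 passed (8.33%, below the share of all genes), and the median was 0.01. It was *Id2*, an inhibitor of helix-loop-helix factors, which fell from 153, 181 and 199 FPKM in controls to 104, 115 and 98.7 in mutants (log2 fold change −0.75, SE 0.11, adjusted p = 0.0025). The kinase genes *Csnk1d* and *Csnk1e*, whose products phosphorylate PER proteins, had log2 fold changes of 0.01 (95% CI −0.17 to 0.18) and 0.13 (95% CI −0.07 to 0.33). Of 8 clock output genes, 3 fell and 1 rose, with a median of −0.20. Thus 4 of the 8 output genes passed, while 13.2% of all genes tested did. *Tsc22d3*, which encodes the glucocorticoid-induced protein GILZ, fell from 30.0, 64.1 and 51.0 FPKM to 9.58, 12.5 and 17.2 (log2 fold change −1.87, SE 0.27, adjusted p = 0.002). *Wee1*, a kinase that holds back entry into mitosis, fell from 9.11, 13.7 and 12.4 FPKM to 6.73, 7.05 and 9.03 (log2 fold change −0.63, adjusted p = 0.029). Its adjusted p was 0.12 and 0.11 without control samples 2 and 3, and 0.053 and 0.094 without mutant samples 1 and 2. *Lonrf3* fell (log2 fold change −0.71, adjusted p = 0.03), and *Dtx4*, at 1.04 FPKM or less in all samples, rose (log2 fold change 1.35, adjusted p = 0.025). The adjusted p of *Lonrf3* was 0.1 with limma at both pseudocounts, 0.09 and 0.11 without control samples 1 and 3, and 0.09 without mutant sample 2. That of *Dtx4* was 0.11 and 0.088 without control samples 2 and 3, and 0.074 without mutant sample 2.

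**Figure D3:**
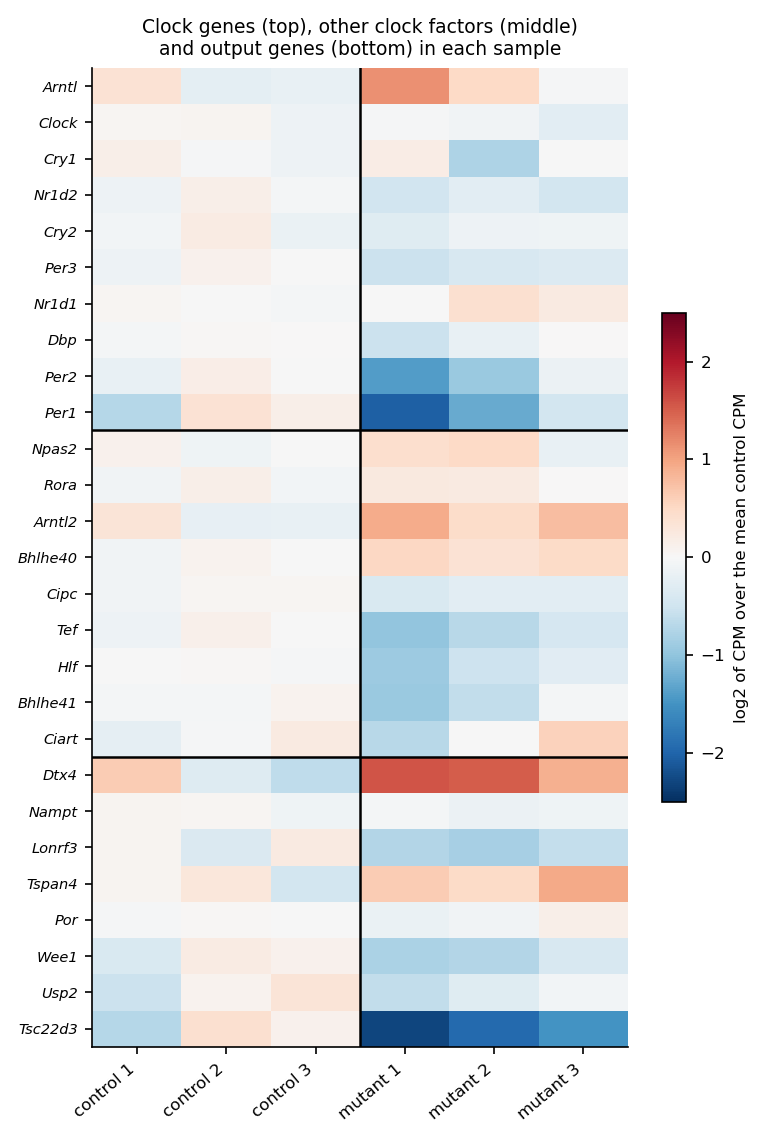
Log2 of CPM over the mean control CPM for the clock genes, other clock transcription factor genes and output genes (rows). It has 1 column per sample and a colour scale centred on 0. In the mutant columns *Per1*, *Per2*, *Tef*, *Hlf* and *Tsc22d3* are lowest in mutant sample 1, where *Arntl* is highest.

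The mutant samples took the same order in many clock genes. Of the 10 genes, 7 were lowest in mutant sample 1 among the mutants (*Per1*, *Per2*, *Per3*, *Cry2*, *Nr1d1*, *Nr1d2*, *Dbp*) and the other 3 were highest there (*Arntl*, *Clock*, *Cry1*). Over all genes tested, 37.7% were lowest and 37.6% highest in mutant sample 1. In 5 of the 10 genes mutant sample 1 was the lowest and mutant sample 3 the highest mutant, a pattern seen in 21.7% of all genes. From mutant sample 1 to mutant sample 3 the difference in log2 CPM was 1.58 for *Per1*, at percentile 99.7 of all genes tested, and 1.26 for *Per2*, at percentile 99.4. It was 1.26 for *Ciart* (percentile 99.4), 0.88 for *Bhlhe41* (98.4), 0.63 for *Hlf* (96.5), 0.57 for *Tef* (95.6) and 0.54 for *Dbp* (94.9). It had the other sign for *Arntl*, at −1.16 (percentile 1.24), and *Npas2*, at −0.59 (4.97). The difference was 0.21 for *Per3* (percentile 76.9) and 0.01 for *Nr1d2* (51.5). Among controls, sample 1 was the lowest in 5 of the 10 genes and the highest in 3, against 31.5% and 32.6% of all genes.

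Differences within a sample between genes of opposite phase placed mutant sample 1 lowest of all 6 in each case. Among the controls, control sample 1 was the lowest in each. *Arntl* enters the differences with *Dbp* and with *Nr1d1*, so these are not separate observations. The difference *Dbp* minus *Arntl* on the log2(FPKM + 1) scale was 3.81, 4.39 and 4.33 in control samples 1, 2 and 3 and 2.65, 3.56 and 4.17 in mutant samples 1, 2 and 3. In FPKM, *Dbp* was 16.5, 26.7 and 25.6 times *Arntl* in controls and 6.86, 13.6 and 22.2 times in mutants. Mutant sample 3 lay within the range of the controls, and mutant samples 1 and 2 lay below it. *Per3* minus *Npas2* on that scale was 2.79, 3.20 and 3.02 in controls and 2.19, 2.25 and 2.86 in mutants, with the same mutant sample among the controls. *Nr1d1* minus *Arntl* was 4.34, 4.76 and 4.70 in controls and 3.59, 4.57 and 4.82 in mutants, where mutant sample 1 alone was below the controls. These values are a description of 6 samples and were given no test. The phase of the clock, the time of day of collection and the genotype cannot be told apart with these samples.

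**Figure D4:**
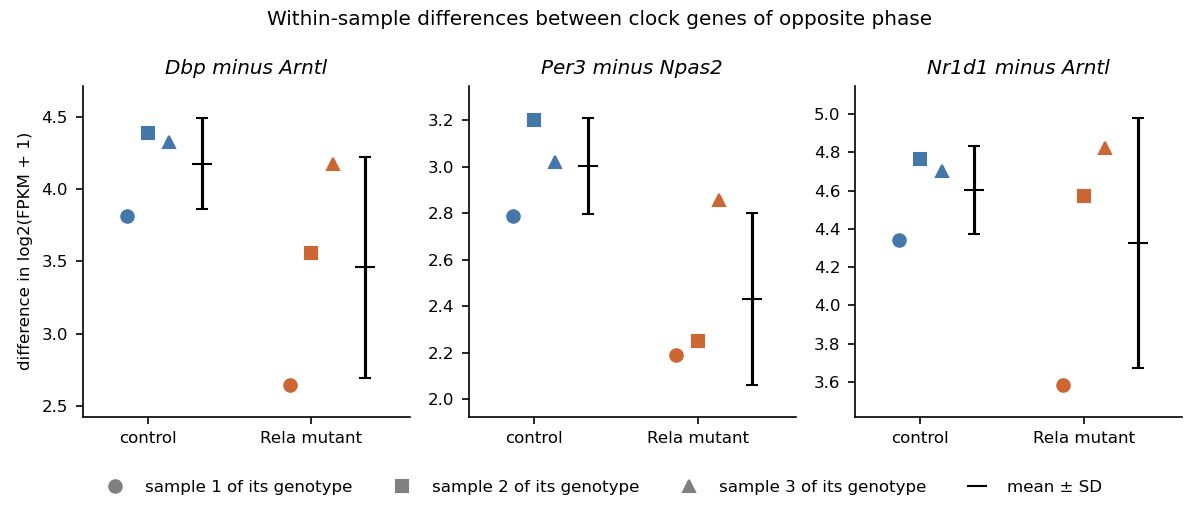
Differences between clock genes of opposite phase within each sample (y axis, log2(FPKM + 1) of the first gene minus that of the second, not starting at 0), with circles, squares and triangles for samples 1, 2 and 3 of each genotype and bars for mean ± SD. *Dbp* minus *Arntl* is 2.65 in mutant sample 1 and 4.17 in mutant sample 3, against 3.81 to 4.39 in the controls.

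Between samples of the same genotype, *Per1*, *Arntl*, *Per2* and *Cry1* varied most among the 10 genes. The pooled SD of log2 CPM around the genotype means was 0.69 for *Per1*, at percentile 98.4 of all genes tested, 0.47 for *Arntl* (94.9), 0.47 for *Per2* (94.7) and 0.37 for *Cry1* (90.7). It was 0.19 for *Dbp* (70.3), 0.16 for *Cry2* (59.5) and 0.15 for *Nr1d1* (55.8). *Nr1d2* (0.13, percentile 44.5), *Clock* (0.12, percentile 38.4) and *Per3* (0.11) were below the median gene on this scale, whose SD was 0.14, and the other 7 were above it. On the log2(FPKM + 1) scale all 10 were above the median gene, with *Nr1d2* at percentile 59.2, *Per3* at 55.8 and *Clock* at 51.3. *Per1* spanned a 3.07-fold range among mutants and a 2.10-fold range among controls, and *Per2* a 2.45-fold and a 1.29-fold range in FPKM. *Arntl* and *Cry1*, with the lowest control means of the 10 in FPKM, had 197 to 508 and 125 to 243 counts per sample. The part of the count level in their SD was not tested.

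**Figure D5:**
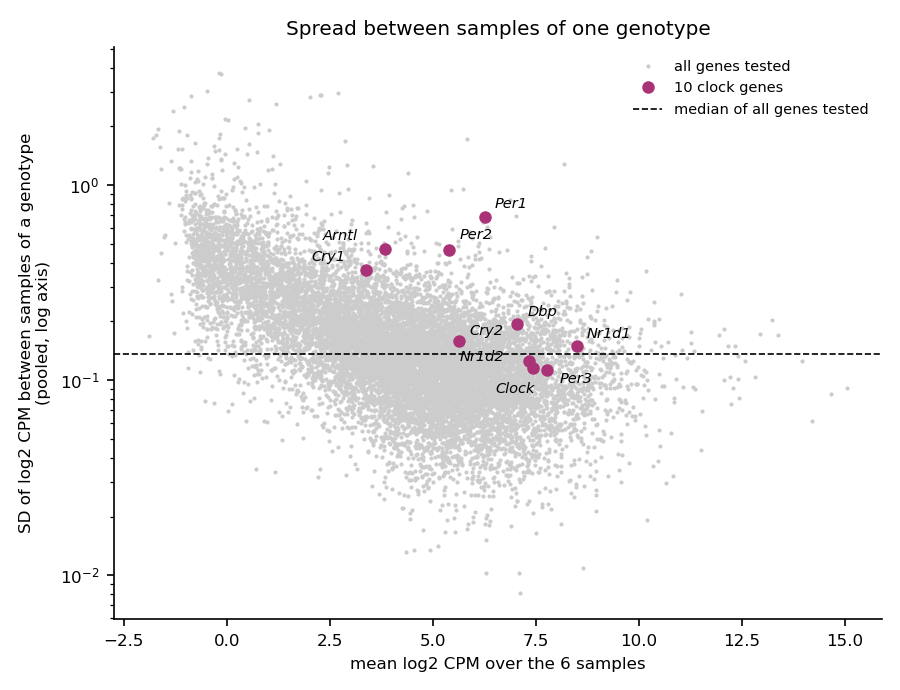
Pooled SD of log2 CPM between samples of a genotype (y axis, log axis) against mean log2 CPM over the 6 samples (x axis) for all genes tested (grey) and the 10 clock genes (coloured), with a dashed line at the median SD of 0.14. *Per1*, *Per2*, *Arntl* and *Cry1* lie high in the cloud, and *Per3*, *Nr1d2* and *Clock* lie below the line on this scale.

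*Per1* is also induced outside the loop, by glucocorticoids and by cAMP and CREB signalling, so genes of those responses are given beside it. Leaving out *Per1*, which both lists hold, 1 of 6 glucocorticoid response genes tested (of 7 listed) passed, 16.7% against 13.2% of all genes tested. It was *Tsc22d3*, which also stands in the list of output genes, and the median log2 fold change of the list was −0.39. With *Per1* the median was −0.56. Control sample 1, the control lowest in *Per1*, was the lowest control in 5 of these 6 genes, against 31.5% of all genes, among them *Tsc22d3* at 30.0 FPKM against 64.1 and 51.0. Of 8 CREB and immediate early response genes tested (of 9 listed), again without *Per1*, 1 fell and 1 rose. This was 25.0%, against 13.2% of all genes tested, and the median was 0.29. *Sik1*, a kinase gene induced by CREB, fell from 37.3, 43.6 and 38.2 FPKM in controls to 25.0, 28.0 and 30.9 in mutants (log2 fold change −0.51, SE 0.09, adjusted p = 0.0065). *Junb*, which encodes an AP-1 subunit, rose from 175, 148 and 164 FPKM to 229, 281 and 190 (log2 fold change 0.52, adjusted p = 0.035). Its adjusted p was 0.07, 0.15 and 0.097 without control samples 1, 2 and 3, and 0.097 without mutant sample 2. The part of these responses in the values of *Per1* was not tested.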

How the data were processed

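Corneal epithelial RNA of 3 control and 3 *Krt14-Cre; Rela f/f* samples was sequenced in bulk. The labels name TruSeq libraries, while the study's methods name a depletion of ribosomal RNA and a BGI sequencer, and strand is not given in the sources used here. The authors filtered reads with SOAPnuke, aligned them with Bowtie2 2.2.5 and deposited RSEM 1.2.12 expected counts per gene, neither normalized nor pooled. The deposited FPKM values are scaled by transcript length and sample total. The submitters' processing notes name mm9, but the table carries chromosome accessions and coordinates of GRCm38. Columns of the authors' own comparison (log2 ratio, p-value and q-value) were not used.

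The counts, rounded to whole numbers, were fitted in edgeR 4.0.16 (R 4.3.3; TMM scaling, filterByExpr with a minimum count of 10 and a total of 15, quasi-likelihood test with genotype as the only factor, Benjamini-Hochberg adjustment over 12667 genes). Between 31.5% and 32.2% of a sample's expected counts were not whole. Standard errors were derived from the fold change and its F statistic. The scripts were tested on simulated data. Log2 CPM used a prior count of 2. The alternatives comprised upper-quartile scaling, DESeq2 1.42.0, a minimum of 10 counts in every sample, the lack of any filter, limma 3.58.1 on log2(FPKM + 1) and log2(FPKM + 0.1) for genes with a mean FPKM of at least 0.5, a replicate block and each sample left out in turn. Single values were also compared with an exact two-sided permutation test.

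Positions and promoter windows come from RefSeq on GRCm38.p6 and exon overlaps from GENCODE, and 17434 of 17554 genes matched RefSeq by identifier. The genes named are the 10 clock genes, counterparts or genes with an adjusted p under 0.05 of the pathway lists, genes overlapping the exons of the 10, and *Rela*. *Csnk1d*, *Csnk1e*, *Rora* and the genes of the closing observations fall outside this rule and were named after their values were seen. The clock genes and the lists were chosen with earlier results of these data known, and 1 gene of the pathway is not reported here. The samples were grouped by the genotype of the labels.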

Additional observations from a re-analysis of the deposited data

How the results depend on the processing

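The number of the 10 clock genes at an adjusted p under 0.05 was 2 with edgeR, DESeq2, upper-quartile scaling, the minimum of 10 counts and limma at both pseudocounts, *Per3* and *Nr1d2* each time, and 3 with no filter. It was 0 to 4 with a sample left out, lowest without control sample 2, 1 without control sample 3 (*Per3*) and highest without mutant sample 3. All genes called numbered 857 to 1869 of the genes tested with a sample left out, lowest without control samples 2 and 3 (999), against 1678 with all samples. By the stricter thresholds they numbered 342 with DESeq2 against 173 with edgeR, and 36 to 193 with a sample left out, of which 88 without control sample 1 and 56 without control sample 3. Of the other clock and output genes, in lists of 9, 12 and 8 genes tested, 10 passed, while 13.2% of all genes did. With a sample left out 4 to 11 passed, with 4 without control sample 2 or control sample 3 and 5 without mutant sample 2. The cause of these changes was not tested. The log2 fold change of *Cry1* was −0.34 to 0.092 with a sample left out and turned sign without mutant sample 2 (adjusted p = 0.73 by edgeR). That of *Ciart* was −0.31 to 0.31 and turned without control sample 1 (−0.06) and without mutant sample 3 (−0.31), and in the fit with the replicate block (−0.014). *Rela*, the other 9 clock genes and every pathway or response gene with an adjusted p under 0.05 kept their sign under the 13 alternatives. The labels number the samples of both genotypes 1 to 3, but the deviations of same-numbered samples correlated at 0.019, 0.048 and −0.046, so the numbers were not taken as pairs, and not every sample correlated best with its own number. With the replicate block 5 of the 10 clock genes passed (*Arntl*, *Per1*, *Per2*, *Per3*, *Nr1d2*), and 1419 of all genes. *Junb* did not (adjusted p = 0.059), and the block changed no other call among *Rela*, the 10 clock genes and the pathway and response genes with an adjusted p under 0.05. On log2 CPM the mutant minus control difference was −0.79 for *Dbp* minus *Arntl*, −0.67 for *Per3* minus *Npas2* and −0.35 for *Nr1d1* minus *Arntl*, and on log2(FPKM + 1) −0.72, −0.57 and −0.28.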

Other observations

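The immediate early genes *Egr1*, *Fos* and *Dusp1* were each highest in mutant sample 2. *Egr1*, a zinc finger transcription factor gene induced within minutes of a stimulus, was 9.28, 15.8 and 10.5 FPKM in control samples 1, 2 and 3 and 16.4, 70.2 and 14.1 in mutant samples 1, 2 and 3. The log2 fold change of *Egr1* was 1.51 (adjusted p = 0.1, edgeR's quasi-likelihood test), and mutant sample 2 alone was far above the other samples. *Fos* was 33.4, 53.6 and 25.8 FPKM in the mutants against 26.2, 33.1 and 34.2 in the controls, and *Dusp1*, a phosphatase gene of the same response, was 37.8, 52.7 and 27.0 against 26.1, 27.2 and 20.3. *Dusp1* stands in the list of glucocorticoid response genes. Of the CREB and immediate early list, *Fosb*, *Ier2* and *Junb*, whose values are given above, were also highest in mutant sample 2. *Fosb* was 1.2, 2.59 and 0.93 FPKM in the mutants against 1.41, 1.26 and 0.75 in the controls. *Ier2* was 45.5, 67.14 and 44.76 against 44.42, 39.73 and 43.05. In FPKM, *Sik1*, *Crem* and *Nr4a2* of that list were not highest of all samples in mutant sample 2. *Sik1* was highest among the mutants in mutant sample 3, *Crem* was 1.44, 1.39 and 1.25 FPKM in the mutants, and *Nr4a2* was 14.1 FPKM in mutant sample 2 and 14.2 in control sample 1. *Fkbp5*, a glucocorticoid response gene, was 6.79 FPKM in control sample 1 against 18.8 and 17.1 in control samples 2 and 3, and 10.2, 10.3 and 8.51 in the mutants (log2 fold change −0.56, adjusted p = 0.26). These genes were described after their values were seen.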
